A study of Mus musculus with 7 samples.

Results

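COX1, COX2, COX3, CYTB, ATP6, ATP8, ND1, ND2, ND4 and ND5 are genes of the mouse mitochondrial genome that encode subunits of the respiratory chain and of ATP synthase. They were taken by symbol from a liver RNA-seq count table, where they are 10 of 14889 rows and 10 of the 13 mitochondrially encoded protein-coding rows, and all 10 passed the filter on low counts. Every liver came from an ApoE-/- mouse of the C57BL/6 strain, aged 4 months, that had been on a Western diet for 3 months. All mice therefore lacked apolipoprotein E and ate the atherogenic diet, and there was no chow-fed or wild-type group. The control mice were injected intraperitoneally with saline (n = 4) and the treated mice with PX-478 at 40 mg/kg (n = 3), both on a bi-weekly schedule. PX-478 is a small-molecule inhibitor of HIF-1α, the oxygen-regulated subunit of the transcription factor HIF-1, and the comparison asks how liver transcripts differ when it is given.

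Mitochondrial DNA is a small circular genome that is present in many copies per cell and is transcribed from both strands into long precursor RNAs. Most messenger RNAs are cut from these precursors at the transfer RNAs that lie between them, and are then polyadenylated inside the mitochondrion. The ND genes encode membrane subunits of complex I (NADH dehydrogenase), CYTB encodes cytochrome b of complex III, COX1, COX2 and COX3 form the catalytic core of complex IV (cytochrome c oxidase), and ATP6 and ATP8 are subunits of complex V (ATP synthase). All other subunits of these complexes, and the whole of complex II, are encoded in the nucleus. Liver is rich in mitochondria, and HIF-1 is known for shifting cells from respiration towards glycolysis.

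The sequences of the genes bear on what could be counted, because neighbouring genes of this compact genome share bases. In the GENCODE M21 annotation of GRCm38 (mm10), all 10 genes lie on the plus strand of the mitochondrial chromosome, each as a single exon without an intron. ATP8, the shortest at 204 bases, occupies chrM:7766-7969. Its last 43 bases, at chrM:7927-7969, are also the first bases of ATP6, and they are shown in capitals.
ATP8: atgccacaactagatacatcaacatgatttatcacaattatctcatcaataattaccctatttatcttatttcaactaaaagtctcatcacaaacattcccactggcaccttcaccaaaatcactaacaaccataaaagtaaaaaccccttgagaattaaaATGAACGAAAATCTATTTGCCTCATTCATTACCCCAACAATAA
ATP6 runs to chrM:8607 and shares its last base with COX3 (chrM:8607-9390). ND4 (chrM:10167-11544) shares 7 bases with ND4L, and ND5 (chrM:11742-13565) shares 14 bases with ND6, which lies on the other strand.

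The 3′ ends show the same economy. COX3, ND4 and CYTB (chrM:14145-15288) end on the first base of a stop codon, which the poly(A) tail completes, so their stop exists only in the polyadenylated transcript. COX1 (chrM:5328-6872) is given for comparison as a gene with a whole stop codon. The last 30 bases of each follow, with the stop codon, or the part of it that the genome holds, in capitals.
COX3 end: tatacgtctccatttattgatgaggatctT
ND4 end: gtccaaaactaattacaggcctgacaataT
CYTB end: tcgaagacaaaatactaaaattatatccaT
COX1 end: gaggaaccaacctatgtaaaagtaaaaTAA
As annotated, 7 of the 10 genes held a complete stop codon. Transfer RNA genes share the last 2 bases of ND1 (TrnI), the last 2 of ND2 (TrnW) and the last 3 of COX1 (TrnS1). The first codon was ATG in 7 genes. The other starts, all in ND genes, are shown with the first codon in capitals, for ND1 (chrM:2751-3707), ND2 (chrM:3914-4951) and ND5.
ND1 start: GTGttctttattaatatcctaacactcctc
ND2 start: ATAaatcctatcacccttgccatcatctac
ND5 start: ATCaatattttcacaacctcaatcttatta
COX2 occupies chrM:7013-7696. GC content ran from 31.9% in ATP8 to 39.9% in COX1. Because these bases are shared, a read at the junction of ATP8 and ATP6 cannot be given to 1 gene by position, and how the authors assigned such reads is not stated. The nuclear genome holds copies of mitochondrial sequence, and how reads with several matches were counted is not stated either.

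The 7 libraries held 10285776 to 17257304 counted reads. The library PX-478 2 stood apart from the other 6: its scaling factor by trimmed mean of M-values (TMM) was 1.29 against 0.888 to 1.05. In CPM (counts scaled to a common library total), here of the reads outside the mitochondrial rows, its sum over 6 of 6 stellate cell and fibroblast markers was 523 against 180.1 to 308 in the others, that of 5 of 5 cholangiocyte markers 218 against 102 to 149, and that of 2 of 5 adipocyte markers 43.7 against 12.1 to 29.4, with the adipocyte-defining Adipoq and Plin1 not among the rows. Its hepatocyte marker sum of 64106 lay within the 43354 to 65784 of the others. The labelled tissue thus carried its hepatocyte markers in every library. Hif1a, the transcript of the drug's target protein, had 148 to 216 reads per library. Apoe had 1899 to 5378 reads in all 7 libraries; the labels do not say which bases of the gene the allele lacks, so these reads do not check the genotype.

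The 10 genes together took between 20.8% and 34.4% of all counted reads of a library. COX1 ranked first and CYTB second among all genes in each of the 7 libraries by read count, 9 of the 10 genes ranked between 1 and 14, and ATP8 ranked between 618 and 2405. Compared per length, in RPKM (reads per kilobase, scaled to the library's total count), COX1 had a median of 53209 over the libraries and exceeded CYTB, at 35555, in 7 of 7 libraries (1.46-fold on average). CYTB in turn exceeded ATP6 in 7 of 7 (1.21-fold).

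Behind these came a group of genes with similar RPKM. ATP6, ND1, COX2, ND2 and COX3 had medians between 26111 and 29301, and neighbours in their order kept that order in 4 to 6 of 7 libraries, at mean ratios of 1.00-fold to 1.09-fold, except that COX3 exceeded ND4 in 7 of 7 (1.24-fold). ATP6 and ND1 could not be ordered, with a mean log2 ratio of 0.00 (SD 0.08, n = 7). ND4, with a median of 19690.3 RPKM, exceeded ND5, at 7664, by 2.78-fold in 7 of 7 libraries. ND5, the largest complex I subunit made in the mitochondrion, was thus the lowest of the 4 complex I genes per length in each library.

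ATP8 stood at a median of 431 RPKM, and ND5 exceeded it 16.3-fold. ATP8 encodes a short membrane subunit of ATP synthase and is read from the same bicistronic messenger as ATP6. Its reads per base were 0.880% to 2.50% of those of ATP6. ND4L, the partner of ND4 on the other bicistronic messenger, had 12.3% to 23.8% of the reads per base of ND4. Whether the counting of shared bases or the length of these genes moved these values was not tested.

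**Figure D1:**
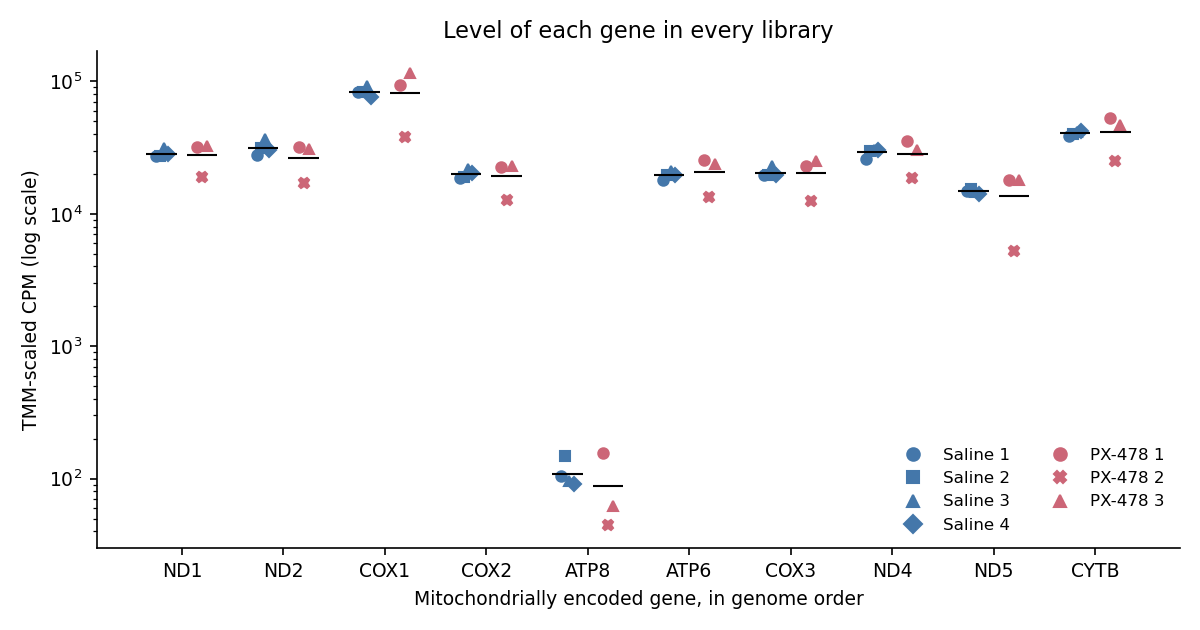
TMM-scaled CPM (log axis) of the 10 genes in genome order, with 1 point per library (blue, 4 saline; red, 3 PX-478) and a black bar at each group mean. PX-478 2 (cross) is the lowest library for each gene, and ATP8 lies far below the other 9, at 44.5 to 156 CPM.

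Between the groups, none of the 10 genes passed the test, and the groups overlapped for each of them. With edgeR's quasi-likelihood test and Benjamini-Hochberg adjustment over 13693 genes, 0 of the 10 were called, against 0.0073% of all genes tested (1 gene, lower in PX-478). At an unadjusted p under 0.05 there were also 0 of 10, against 6.97% of all genes, and 0 of 10 had groups without overlap, against 8.59%. Log2 fold changes, as PX-478 relative to saline, were above 0 for 2 genes and below 0 for 8, with a median of -0.04 against -0.0035 over all genes (49.7% of all genes were above 0 and 50.3% below). They spanned -0.32 to 0.08, and adjusted p lay between 0.876 and 0.990.

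The SD between libraries was larger in PX-478 than in saline for all 10 genes, and this difference in spread was not tested. PX-478 1 and PX-478 3 exceeded all 4 saline libraries for 8 of the 10 genes (all but ND2 and ATP8), where 10.5% of all genes did so. PX-478 2 was below all 4 saline libraries for 10 of 10, where 20% of all genes were. Both held together for 8 of the 10 genes and for 1.04% of all genes. This arrangement was noticed after the values were seen and is a description. The 10 genes moved together across the 7 libraries (median pairwise Pearson's r of 0.935), so counts among them are not counts of independent genes. The groups had no overlap for 8 of the 10 genes without PX-478 2, where 19.6% of all genes had none, and for 1 without PX-478 1, where 13.3% had none. On unscaled CPM the first held for 5 of the 10 (8.11% of all genes), the second for 9 (5.08%), and both held for 4 of the 10 genes (COX1, COX2, COX3 and ND1) and 0.183% of all genes.

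Of the complex I genes, ND1, which encodes the subunit at the quinone-binding site, had 27133, 27383, 31343 and 28152 TMM-scaled CPM in the saline libraries 1 to 4. The PX-478 libraries 1 to 3 had 32069, 18827 and 32548. Saline thus sat inside the range of PX-478, and edgeR's fit put ND1 at a log2 fold change of -0.04 with a 95% interval from -0.58 to 0.51 (SE 0.25, adjusted p = 0.981). ND2, one of the proton-pumping membrane subunits, had 27654, 31574, 36438 and 30436 CPM in saline and 31718, 17024 and 30911 in PX-478. PX-478 1 and PX-478 3 both lay within the saline range of ND2. ND2 had a log2 fold change of -0.25, with an interval from -0.82 to 0.33 (SE 0.27, adjusted p = 0.876).

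ND4 and ND5 encode the other antiporter-like pumping subunits. ND4 had 25866, 29661, 30199 and 30441 CPM in saline and 35569, 18681 and 30555 in PX-478, where the last library exceeded the highest saline library only slightly. Its log2 fold change was -0.04 (SE 0.26, interval -0.60 to 0.52). ND5 was even among the saline livers, at 14930.4, 15347, 14539.7 and 14116 CPM (14733 ± 528, SD, n = 4). The PX-478 livers had 18114, 5234 and 17837 CPM (13728 ± 7358, SD, n = 3), so that on this scale 2 lay above and 1 far below a narrow saline range. On unscaled CPM the saline SD of ND5 was 1362. There PX-478 3 lay inside the saline range of ND5 (15840 within 13008 to 16141) and of ND4 (27133 within 24216 to 31196). The log2 fold change of ND5 was -0.10 (SE 0.35, interval -0.86 to 0.66, adjusted p = 0.966).

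CYTB, the only complex III subunit made in the mitochondrion, had 38986, 40008, 41303 and 42120.1 CPM in saline and 52511, 25028 and 46998 in PX-478. The saline libraries were again close together on this scale (40604 ± 1386, SD, n = 4, against 41512 ± 14540, SD, n = 3). On unscaled CPM the saline SD of CYTB was 2752, and PX-478 3 (41735) lay inside the saline range of 36500 to 42078. CYTB and ATP6 were the genes with log2 fold changes above 0, at 0.03 for CYTB (SE 0.27, interval -0.56 to 0.62, adjusted p = 0.982).

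In complex IV, COX1, which carries the heme and copper site where oxygen is reduced, had 83113, 83018, 91886 and 76174 CPM in saline. In PX-478 it had 94033, 37996 and 114934, a span that enclosed all saline values. Its log2 fold change, -0.02 (SE 0.33, interval -0.73 to 0.69), had an adjusted p of 0.990. COX2, which takes electrons from cytochrome c, had 18556 to 21927 CPM in saline and 22654, 12634 and 22936 in PX-478 (log2 fold change -0.04, SE 0.25). COX3, a core subunit without metal centres, had 19612 to 22881 CPM in saline and 22945, 12533 and 24987 in PX-478 (log2 fold change -0.02, SE 0.26). On this scale PX-478 3 was the highest library for all 3 COX genes. On unscaled CPM PX-478 1 exceeded PX-478 3 for COX2 (23261 against 20367) and COX3 (23560.0 against 22189), as it did not for COX1.

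In complex V, ATP6, which forms the proton channel with the c-ring, had 17874, 19656, 21213 and 19786 CPM in saline and 25267, 13475 and 23727 in PX-478. Its log2 fold change of 0.08 (SE 0.26, interval -0.47 to 0.64) was the highest of the 10. ATP8 differed from the rest in its pattern. It had 104, 147, 95.2 and 91.1 CPM in saline and 156, 44.5 and 62.5 in PX-478, so PX-478 3 lay below saline with PX-478 2 while PX-478 1 was the highest library. Its log2 fold change of -0.32 (SE 0.39, interval -1.18 to 0.54) had an adjusted p of 0.891. Without PX-478 1 it was -1.03 (unadjusted p = 0.00223, adjusted p = 0.897), without PX-478 2 it was 0.00, and without Saline 2 it was -0.14. ATP8 rests on 588 to 2243 reads per library, against 69196 or more for the other 9 genes.

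**Figure D2:**
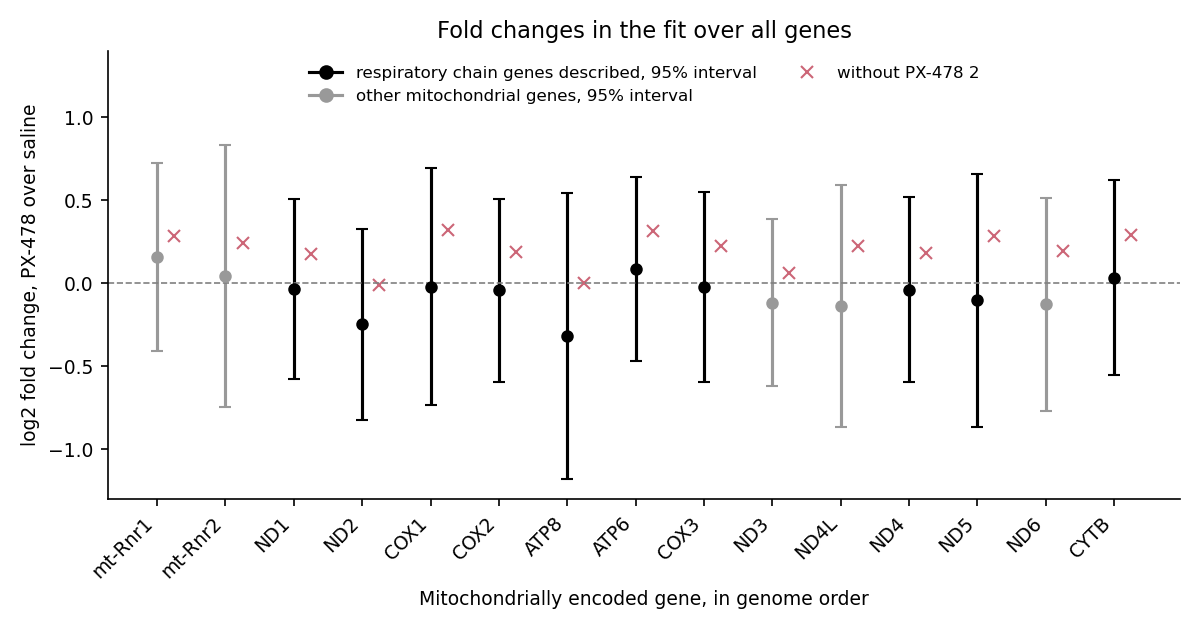
Log2 fold change (PX-478 relative to saline) for the 15 mitochondrially encoded genes in genome order, with 95% intervals from edgeR's quasi-likelihood fit on all 7 libraries (black, the 10 genes described; grey, the other 5), and the fold change without PX-478 2 as a red cross. Each interval includes 0, and without PX-478 2 the value of COX1 goes from -0.02 to 0.32.

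The direction of the 10 genes followed single libraries. Without PX-478 2, 9 of the 10 had a log2 fold change above 0, with a median of 0.21, and COX1 reached 0.32, ND5 0.29 and CYTB and ATP6 also stayed above 0. Without PX-478 1, or without PX-478 3, all 10 were below 0, each time with a median of -0.17. Without Saline 3, 6 were above and 4 below 0 (median 0.01). In none of these fits was any of the 10 called, and the lowest adjusted p was 0.679. With total counts in place of TMM the median over all genes went to 0.15 and that of the 10 genes to 0.06, with 7 above and 3 below 0, so their median was below that of all genes under both scalings.

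As a share of all counted reads, the 10 genes took 25.6%, 30.02%, 27.9% and 27.2% in the saline livers (27.7% ± 1.82, SD, n = 4). In the PX-478 livers they took 34.4%, 20.8% and 30.7% (28.6% ± 7.05, SD, n = 3). PX-478 thus held the highest and the lowest library of the study. At these depths the 95% Wilson interval of a library's summed share was at most 0.0271 percentage points to either side, and this covers counting error only. Without PX-478 2 the mean difference between the groups went from 0.928 to 4.86 percentage points, and without PX-478 1 to -1.97. In whole liver, fewer mitochondria-rich cells and less mitochondrial RNA per cell cannot be told apart.

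PX-478 2 was not lower by 1 common factor. Against the saline mean, its log2 difference in TMM-scaled CPM was -1.49 for ND5, -1.298 for ATP8 and -1.14 for COX1. It was -0.54 for ATP6, -0.60 for ND1, -0.64 for ND4 and -0.66 for COX2, with COX3, CYTB and ND2 between -0.70 and -0.89. On unscaled CPM the gaps were smaller. There ATP6 had 17319.5 in PX-478 2 against a saline mean of 18873, and ND5 had 6727 against 14190. The genes with the largest differences included the longest, ND5 (1824 bases) and COX1 (1545 bases), and the shortest, ATP8 (204 bases), while ND4 (1378 bases) was among those with the smallest. Markers of stellate cells, cholangiocytes and adipocytes had their highest sums in this library. So did 2 of 4 neutrophil markers (11.8 CPM against 3.61 to 8.29) and 1 of 5 muscle markers (3.51 against 0 to 1.63), with Ly6g, Mpo, Acta1 and Ckm not among the rows. The endothelial sum of 554 lay above all 4 saline libraries and below PX-478 1. The part of these markers in the values was not tested.

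Ratios among the genes do not depend on how the libraries are scaled. ND5 made up 3.24% of the summed reads of the 10 genes in PX-478 2 and 4.66% to 5.45% in the other 6 libraries. Its ratio to ND1 reads was 0.278 in PX-478 2 and 0.464 to 0.565 elsewhere. COX1 made up 23.5% in PX-478 2 and 27.1% to 33.3% elsewhere, and its ratio to COX3 reads was 3.03 against 3.87 to 4.60. ND1 went the other way, at 11.7% in PX-478 2 against 9.42% to 10.1%, and so did ATP6, at 8.34%, the highest of the 7. The makeup of the mitochondrial messenger pool thus differed in this library as well as its total.

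Between the groups the shares overlapped for all 10 genes. The mean share of ND2 was 10.9% ± 0.656 (SD, n = 4) in saline and 9.65% ± 0.814 (SD, n = 3) in PX-478. The mean share of ATP6 was 6.81% ± 0.211 in saline and 7.58% ± 0.740 in PX-478. Summed by complex, the complex I genes made up 34.9% to 36.6% in saline and 32.4% to 37.0% in PX-478, and the COX genes 41.3% to 44.3% and 39.1% to 47.1%.

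**Figure D3:**
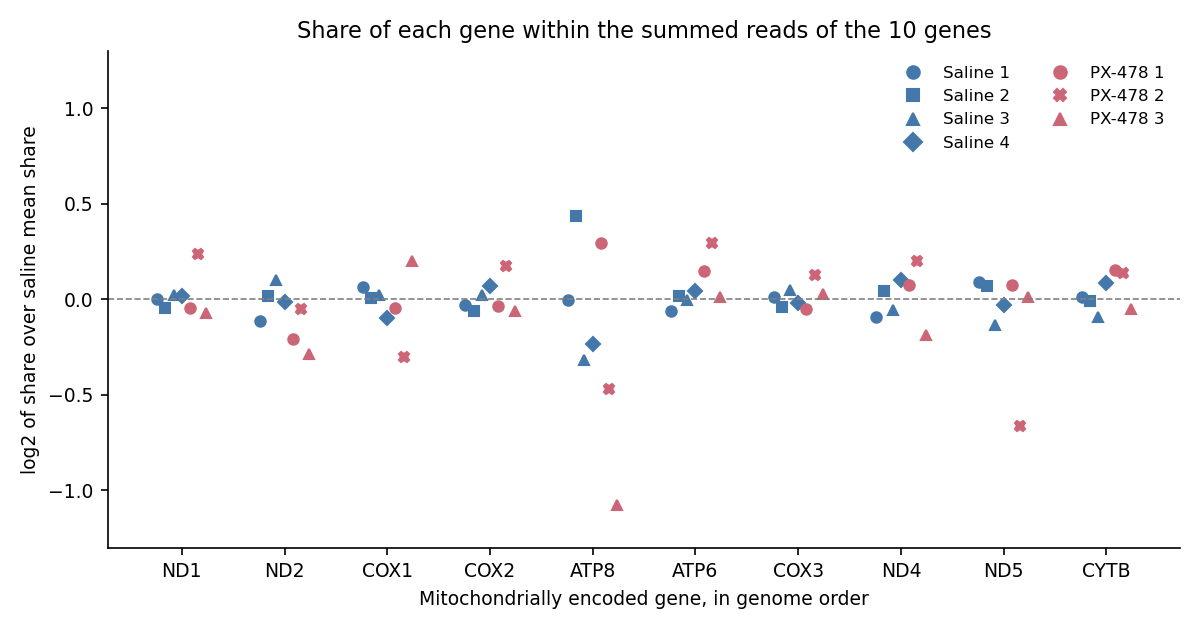
Share of each gene in the summed reads of the 10 genes, as log2 over the mean saline share, with 1 point per library (blue, saline; red, PX-478). PX-478 2 (cross) is low for ND5 and COX1 and high for ND1 and ATP6, while ATP8 spreads most among both groups.

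The 5 other mitochondrially encoded rows did not pass either. ND3, ND4L and ND6 encode further complex I subunits and had log2 fold changes of -0.12, -0.14 and -0.13. In PX-478 2 ND4L was lower than the saline mean by 1.37 on the log2 scale and ND6 by 1.13, while ND3 was lower by 0.56. ND6 lies on the opposite strand to the others and overlaps ND5. Without stated use of strand, reads of the overlap and any antisense reads cannot be told apart.

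The ribosomal RNAs of the mitochondrion, mt-Rnr1 and mt-Rnr2, stood at log2 fold changes of 0.16 (SE 0.26) and 0.04 (SE 0.36). In PX-478 2 their log2 differences from the saline mean in TMM-scaled CPM were -0.16 and -0.48, smaller than those of the 10 genes. On unscaled CPM mt-Rnr1 had 4593 in PX-478 2, above its saline mean of 3809, so the sign of its difference rests on the scaling. Reads of the 10 genes over reads of the ribosomal RNAs ranged from 21.8 in Saline 3 to 50.02 in Saline 1, and PX-478 2 had 22.4. The ribosomal RNAs held 0.513% to 1.28% of all counted reads. How library preparation treated ribosomal RNA is not described here, so the ratio describes counted reads and not RNA amounts in the liver. All 3 PX-478 libraries lay inside the saline range of this ratio.

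The level of the 10 genes moved together across libraries. Over the 45 pairs of genes, Pearson's r of log2 CPM across the 7 libraries had a median of 0.935, from 0.533 to 0.996. Without PX-478 2 the median was 0.679 and the range -0.472 to 0.9752, so much of the common movement rested on that library. ND5 followed the mean of the 10 genes, of which it is part, most closely (r = 0.984) and ATP8 least (r = 0.743). For the ribosomal RNAs r was 0.419 (mt-Rnr1) and 0.453 (mt-Rnr2). Without PX-478 2 these were 0.636 and 0.564, above the 0.261 of ATP8 and the 0.461 of ND2. These are descriptions over 7 libraries that share their depth and scaling.

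Among 3277 nuclear genes of at least 5 mean log2 CPM, those whose log2 CPM followed the mean of the 10 genes most closely were Gfm2 (r = 0.960), 1810055G02Rik (0.959), Usp8 (0.947), Vps72 (0.947) and Cyp2c54 (0.944). Gfm2 encodes a mitochondrial elongation factor that acts in ribosome recycling. The most opposed were Dcn (-0.9751), Scamp3 (-0.928), Fads1 (-0.926), Rbm47 (-0.917) and Igfbp7 (-0.906). Dcn encodes decorin, a matrix proteoglycan of stellate cells and fibroblasts and one of the markers whose sum was highest in PX-478 2. Without PX-478 2, r of the first group was 0.790, 0.682, 0.5045, 0.670 and 0.872, and that of the opposed genes -0.677, -0.733, -0.607, -0.752 and -0.255, each in the order named.

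The nuclear-encoded subunits of complexes I to V, complex II included, were mostly lower in PX-478, and none passed. Of 77 tested, 67 had a log2 fold change below 0 and 10 above, where 50.3% of all genes were below 0. Their median was -0.26, 11 were lower at an unadjusted p under 0.05 (3.48% of all genes were), and 12 had groups without overlap (8.59% of all genes did). The lowest adjusted p was 0.381. Left-out libraries moved the median from -0.15 without PX-478 1 (57 of 78 below 0) to -0.40 without PX-478 3 (70 of 77). Cell type markers leaned as well, with none called: 6 of 7 hepatocyte markers (median -0.32) and 8 of 8 Kupffer cell and macrophage markers (median -0.42) were below 0, and 6 of 7 sinusoidal endothelial markers above 0 (median 0.46). Between libraries the hepatocyte marker sum, in CPM of reads outside the mitochondrial rows, was 53957 to 65784 in saline and 43354 to 64106 in PX-478, the macrophage sum 313 to 705 and 409 to 476, and the endothelial sum 300.3 to 468 and 372 to 581. Their part in the result was not tested. With total-count scaling 55 of 77 were below 0, with a median of -0.12 where that of all genes was 0.15. Earlier results of these data were known when this list was made, so the count is a description.

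By complex, all 29 supernumerary subunits of complex I were below 0 (median -0.33), while the 7 nuclear core subunits, which carry the flavin and iron-sulfur clusters, had 5 below 0 and a median of -0.03. Ndufa10 had 144, 132, 147 and 136 CPM in saline and 71.2, 100.4 and 87.6 in PX-478 (-0.69, adjusted p = 0.381). Ndufb3 had 52.6 to 79.2 CPM in saline and 34.1 to 44.1 in PX-478 (-0.71, adjusted p = 0.434). For both genes all 3 PX-478 libraries lay below all 4 saline libraries. Both genes were named for the smallest p-values among the supernumerary subunits. Of these 29 subunits 7 had groups without overlap, against 8.59% of all genes. The core subunits Ndufs8 and Ndufv2 had log2 fold changes of -0.49 and -0.41.

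The 3 tested subunits of complex II, which has no mitochondrially encoded part, were all below 0, with Sdhc at -0.32 and Sdhb, its iron-sulfur subunit, at -0.23. In complex III 7 of 8 were below 0 (median -0.22). Uqcrb had 121 to 131 CPM in saline and 81.3 to 98.5 in PX-478 (-0.50), and Uqcrc2 had -0.43. In complex IV 11 of 13 were below 0 (median -0.37), with Cox6b1 at -0.55 and Cox7b at -0.43. In complex V 12 of 17 were below 0 (median -0.17), with Atp5j at -0.37 and Atp5k at -0.36.

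The medians of these lists depended on single libraries. For the supernumerary subunits and for complexes II, III, IV and V they stayed below 0 with any library left out, nearest to 0 without PX-478 1 (-0.20, -0.15, -0.11, -0.21 and -0.049) and furthest without PX-478 3 (-0.50, -0.33, -0.38, -0.54 and -0.38). Without Saline 1 complex IV went to -0.24 and complex V to -0.053. The median of the core subunits of complex I turned to 0.060 without PX-478 1 and 0.071 without Saline 3, and was -0.25 without PX-478 3. With total counts, where the median of all genes was 0.15, it was 0.081 for the core subunits, -0.19 for the supernumerary subunits, -0.078 for complex III, -0.23 for complex IV and -0.012 for complex V.

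**Figure D4:**
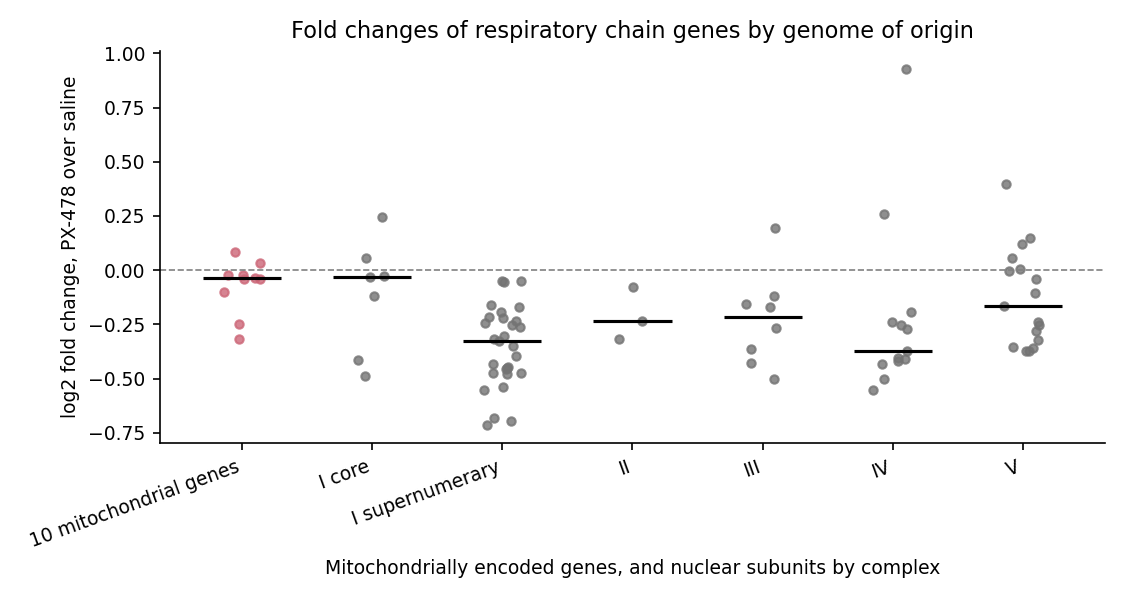
Log2 fold change (PX-478 relative to saline) for the 10 mitochondrially encoded genes (red) and 77 nuclear subunits (grey) by complex, with 1 point per gene and a black bar at the median. The medians are -0.04 for the mitochondrial genes and -0.33 for the supernumerary subunits of complex I, all 29 of which lie below 0.

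Set against the nuclear subunits of its own complex, the summed CPM of the complex I genes was 30.1, 39.6, 36.9 and 39.4 times that of the nuclear subunits in saline, and 58.3, 25.5 and 41.7 times in PX-478. For complex IV the ratio was 60.7, 89.0, 78.2 and 73.3 in saline and 139.6, 48.9 and 109 in PX-478. The ratio for complex III was 22.1 to 28.6 in saline and 46.3, 18.8 and 30.02 in PX-478, and for complex V 9.93 to 14.97 and 23.6, 10.4 and 14.7. In each complex PX-478 1 had the highest ratio of all libraries, and the groups overlapped. For complexes I, III and IV PX-478 2 had the lowest ratio, while for complex V Saline 1 did. PX-478 1 also had the lowest nuclear sum of all libraries in each complex. In complex I that sum was 2015 CPM against 2343 to 3180 elsewhere, and in complex IV 1000 against 1292 to 1998. Its mitochondrial sum was the highest in complexes I, III and V, but in complex IV PX-478 3 was higher (162857 against 139632 CPM). These sums are per gene counts that are not divided by length.

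**Figure D5:**
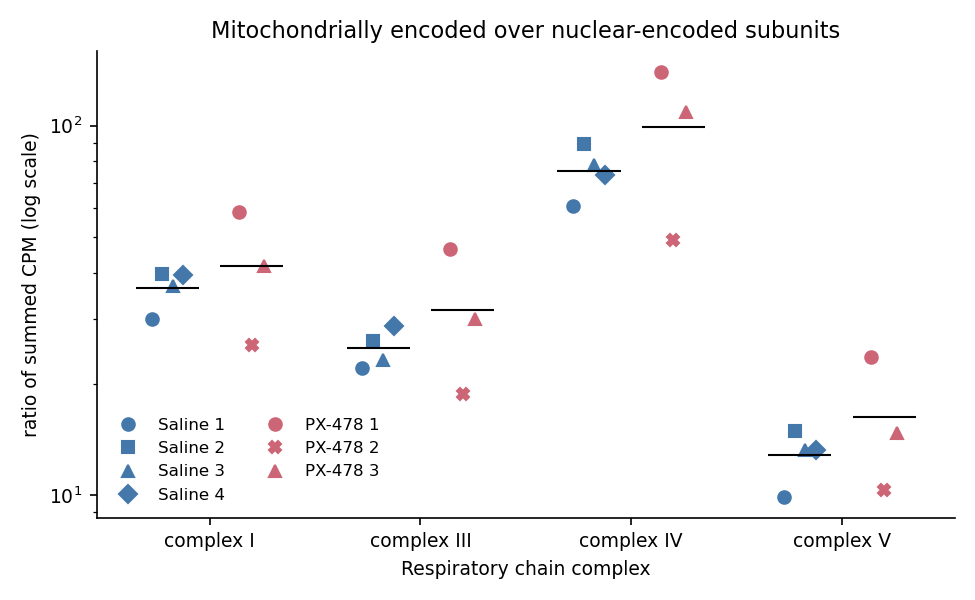
Summed TMM-scaled CPM of the mitochondrially encoded genes over that of the nuclear subunits of the same complex (log axis), with 1 point per library (blue, saline; red, PX-478) and a black bar at each group mean. PX-478 1 is highest in all 4 complexes, at 58.3 in complex I against 30.1 to 39.6 in saline. Its nuclear sum is also the lowest of all libraries in each complex.

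The nuclear genes that serve the mitochondrial genome gave no call in any list. Of the 10 genes of mitochondrial transcription 8 were above 0 (median 0.16, and 0.077 without PX-478 1), with Mterf4, a factor of mitochondrial ribosome assembly, at 0.52 (unadjusted p = 0.0451) and Mterf1a, a termination factor, at 0.29. Of 20 genes of mitochondrial RNA processing, stability and decay 14 were below 0 (median -0.21, but 0.0062 without Saline 3 and -0.027 with total counts). Slirp, which with Lrpprc stabilises mitochondrial messengers, had 22.4 to 27.6 CPM in saline and 16.2 to 17.7 in PX-478 (-0.57, adjusted p = 0.568). Hsd17b10, a subunit of mitochondrial RNase P, which cuts the 5′ ends of transfer RNAs, had -0.56. Translation factors stood at 7 of 12 below 0 (median -0.08, but 0.0061 without PX-478 2, 0.066 without Saline 1 and 0.043 with total counts), with Tsfm at 0.26 and Mtrf1l at 0.29.

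Of 15 genes of mitochondrial DNA maintenance 9 were below 0 (median -0.12, but 0.052 without Saline 2, -0.0031 without PX-478 3 and 0.060 with total counts). Polg2, the accessory subunit of the mitochondrial DNA polymerase, was at 0.91 (5.02 ± 1.38 CPM in saline, n = 4, and 9.44 ± 2.27 in PX-478, n = 3; adjusted p = 0.577). Slc25a33, a pyrimidine nucleotide carrier, was at 0.81. Of 12 biogenesis regulators 7 were above 0 (median 0.07, but -0.050 without Saline 3). Ppargc1b, a coactivator that drives mitochondrial gene programmes, had 6.77, 7.46, 0.793 and 8.14 CPM in saline and 14.8, 16.5 and 14.5 in PX-478 (1.3999, adjusted p = 0.677). Esrra, the nuclear receptor it works with, had 60.6 to 78.3 CPM in saline and 82.9 to 118.9 in PX-478 (0.55, adjusted p = 0.590). For both genes every PX-478 library exceeded every saline library. They were named for the 2 smallest p-values of their list. In it 2 of 12 genes had groups without overlap, against 8.59% of all genes.

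Assembly factors had 28 of 35 below 0 (median -0.17, and -0.094 without PX-478 1 or -0.020 with total counts). Among them Ndufaf1, which helps build the membrane arm of complex I, had 15.5 to 19.3 CPM in saline and 9.38 to 12.7 in PX-478 (-0.67, adjusted p = 0.546), and Lyrm7 lay under 3 CPM in every library. Genes of mitophagy, fusion and fission had 9 of 15 above 0 (median 0.02, but -0.014 without Saline 4). Bnip3, a mitophagy receptor and a HIF-1 target, was at 0.41 (58.4 to 87.8 CPM in saline, 96.1 to 109 in PX-478, adjusted p = 0.717). Of 12 genes of the mitochondrial unfolded protein response and proteases 9 were below 0 (median -0.20, and -0.072 without Saline 3 or -0.040 with total counts). The protease subunit Clpx was at -0.58 and the stress transcription factor Atf5 at -0.82.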

How the data were processed

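RNA of 7 livers was sequenced, and groups and replicate numbers came from the sample titles. Nothing in the labels says whether the animals were housed or processed apart, and a p-value here reflects no more than the scatter of these 7 libraries. The authors deposited whole-number read counts per gene, which are not normalized. Per the submitters' processing notes, reads were counted with featureCounts on mm10 and edgeR was used; no versions are listed. The aligner was not given in the sources used here. Per the file headers, the same table holds the authors' log2 fold change, log2 CPM, F score and unadjusted p-value, which were not used for the results, and 7 further per-sample columns were not used. Every gene in the table reached 0.5 CPM in at least 2 columns, so genes of lower level were not part of it.

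The table gives 2 count columns per sample, and the design had assumed 1. Within a sample the columns gave a chi-square per gene of 0.301 to 0.791, against 49.1 to 145 for different libraries of 1 group. As the columns differed by less than sampling noise, their rounded mean served as 1 sample. Some mitochondrial genes were an exception. The second column was higher in 7 of 7 libraries for COX2 (5.38% to 9.18%), COX3 (2.49% to 6.88%) and ATP6 (1.51% to 3.79%). For ATP8 the difference ran from -12.1% to 5.30%. For COX1 it ran from -0.135% to 0.944%, and nuclear genes of over 1000 reads differed by a median of 0.837% to 1.26%. The sources used here do not say how the columns differ.

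Counts were filtered with filterByExpr, which left 13693 genes, scaled by TMM and tested without covariates by edgeR 4.0.16 (glmQLFit with robust estimates, glmQLFTest; R 4.3.3), with Benjamini-Hochberg adjustment over all genes and a threshold of 0.05. The SE was derived from the log2 fold change and its F value, and intervals are at 95%. Log2 CPM used a prior count of 2. Positions and sequences are from GENCODE M21 (GRCm38). The 10 genes and all lists were chosen with earlier results of these data known. Named are these genes, the other mitochondrial rows, the 2 smallest p-values of each list, the 5 nuclear genes most and least like the 10 genes, Hif1a and Apoe; 1 gene that this rule takes is not reported here. On simulated data the test called 19.8% of genes changed 2-fold (19 of 96) and 74.5% of those changed 4-fold (73 of 98). It called 0.0383% of unchanged genes. A gene that was not called may therefore still differ. Alternatives were other scalings, no count filter, DESeq2 1.42.0, limma-voom 3.58.1, a threshold of 0.1, single columns, a replicate block and leaving out each library. The count of genes without overlap when a library is left out was added after seeing the data.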

Additional observations from a re-analysis of the deposited data

Results flagged for a closer look

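In the saline group the TMM-scaled CPM of COX3 had Saline 3 apart from the other 3 libraries, at 22881 against 19612 to 19715. The gap was 0.968 of the group's range. For ND4, Saline 1 lay apart at 25866 against 29661 to 30441, a gap of 0.83 of the range. By chance about 5% of groups would show such a library. Groups of 3, such as PX-478, were not examined in this way, so PX-478 2 could not appear here.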

How the results depend on the processing

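No alternative called any of the 10 genes. The sign changed for single genes. With total counts COX1 went to 0.040, COX2 to 0.058, COX3 to 0.070, ND1 to 0.068 and ND4 to 0.064, limma-voom gave -0.040 for CYTB, and the fit with the replicate block gave -0.018 for CYTB. With single libraries left out, log2 fold changes ran from -0.34 to 0.32 for COX1, -0.18 to 0.19 for COX2, -0.21 to 0.23 for COX3, -0.17 to 0.29 for CYTB, -0.079 to 0.32 for ATP6, -1.03 to 0.0013 for ATP8, -0.16 to 0.18 for ND1, -0.24 to 0.19 for ND4, -0.36 to 0.29 for ND5, -0.34 to 0.062 for ND3, -0.61 to 0.23 for ND4L, -0.36 to 0.19 for ND6 and -0.18 to 0.43 for mt-Rnr2. The cause of these changes of sign was not tested. Over all genes, calls higher in PX-478 were 4 with total counts, 46 with DESeq2, 1 with the replicate block and 1 at an adjusted p of 0.1. Calls lower were 36 with DESeq2, 0 with limma-voom and 2 with the replicate block. Leaving out single libraries gave 0 to 4 higher and 1 to 3 lower. DESeq2 called 1 nuclear subunit, in the supernumerary list of complex I. Total counts, under which the median of all genes was 0.15, moved the complex II median to -0.10. They moved that of mitochondrial transcription to 0.28, of biogenesis regulators to 0.21 and of mitophagy, fusion and fission to 0.18. The other list medians under that scaling, and some without single libraries, are given beside the lists. No pairing of the samples by replicate number was seen: deviations of same-numbered libraries had correlations of -0.021, -0.074 and -0.0017, and no PX-478 library correlated best with its own number. Correlations over all genes in so few libraries cannot exclude a pairing. Counting error was at most 0.0167 percentage points for the share of a single gene, and with 4 and 3 livers a group the intervals reflect mainly the spread between them.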
